A study of Drosophila melanogaster with 2 samples.

Results

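The salivary glue genes encode the secretion with which a Drosophila larva fixes itself to a surface before it pupates, and 10 of them were examined here out of 13136 genes named on the arrays. They were taken by gene name (Sgs1, Sgs3, Sgs4, Sgs5, Sgs5bis, Sgs7, Sgs8, Eig71Ee, ng1 and ng2), and each was found by its annotated gene number through 1 probe printed once per array. RNA from whole female larvae of the third instar was compared on 2 two-colour oligonucleotide arrays, titled day 6, each with ablated larvae in one channel and control larvae in the other. The ablated larvae carried rnGAL4, UASegr and tubGAL80[ts] over a wild-type chromosome (/+ in the labels). In them the rotund driver expresses eiger, a tumour necrosis factor ligand that kills cells, within the pouch of wing discs. The control larvae carried the TM6 balancer chromosome with the Tb[1] marker and a tubGAL80 transgene. Both groups were kept for 24 h at 30 °C, per the series' design; the labels' treatment text states the temperature dependence of GAL80 the other way round. The rn driver, the eiger transgene and cell death are present in ablated larvae only, and TM6 and Tb[1] in controls only, so ablation and genotype cannot be told apart. The ablated RNA was labelled with Cy5 for replicate 1 and with Cy3 for replicate 2. The labels do not say whether the replicates are separate cultures, and the p-values therefore reflect the spread between these arrays alone, which may be technical.

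Glue is made by the paired larval salivary glands in the later part of the third instar, when the moulting hormone ecdysone switches the glue genes on. A later, larger pulse of the hormone switches them off, and the stored glue is then released. The large glue proteins (Sgs1, Sgs3, Sgs4) are mucins with many sugar-carrying repeats, whereas Sgs5, Sgs5bis, Sgs7 and Sgs8 are small and rich in cysteine. Eig71Ee is a mucin-like protein of the 71E late puff that is also found in the glue, and ng1 and ng2 (new glue) are gland genes that lie inside the dnc gene. Salivary glands are a small share of a whole larva, and in such bulk RNA fewer gland cells and less glue RNA per cell cannot be told apart.

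Of the 10 glue genes, 9 were above background somewhere and could be tested. Of these, 7 read lower in ablated larvae on both dye-swapped arrays, 0 read higher on both, and Sgs1 and ng2 differed in sign between arrays. All directions follow the dyes named in the labels, and whether those of replicate 2 are right was not tested. The background is that 22.4% of the 5971 genes tested were lower on both arrays and 24.5% higher on both. Members at least 2-fold lower on both arrays were Sgs3, Sgs5, Sgs7 and Sgs8, which are 4 of the 23 genes, or 0.385% of all genes tested, with that pattern. This count moved with processing. It was 2 of 12 genes with median centring of each array and 6 of 28 with means of spot pixels in place of medians. In the authors' deposited log2 ratios, with values for 7 tested members, it was 2 of 31. For Sgs3, Sgs5 and Sgs7 both channels were above background on replicate 1 alone and for Sgs8 on replicate 2 alone, and Sgs3 was undetected in both channels of replicate 2. No glue gene passed the test: with limma and Benjamini-Hochberg adjustment over all 5971 genes, 0 genes (0.0%) were called and each of the 9 members had an adjusted p of 0.996. At an unadjusted p under 0.05 stood 4 members, Sgs3, Sgs5, Sgs7 and Sgs8, against 1.88% of all genes on the lower side. The median log2 ratio of ablated to control larvae over the 9 members was -1.44, against 0.00917 over all genes tested. By array the member median was -0.80 on replicate 1 and -1.84 on replicate 2, with medians of all genes at 0.0162 and 0.00569. On each array alone 8 of the 9 members read lower, against 48.5% of all genes on replicate 1 and 49.4% on replicate 2. At least 2-fold lower were 4 members on replicate 1, against 6.01% of all genes, and 7 on replicate 2, against 5.78%.

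Signals below are spot medians minus the local background median, in scanner units, and a channel counts as above background when its spot median exceeds the background median by 2 SD of the background pixels. By this rule 24 of the 40 member readings (10 genes, 2 groups, 2 arrays) were above background, and no pixel of a member spot was saturated. On replicate 1 the ablated channel was above background for 8 members and the control channel for 7. On replicate 2 it was 2 in the ablated channel (Sgs8 and ng2) against 7 in the control channel. Over all 14785 gene spots the ablated channel was not the weaker one in this respect, with 38.1% against 26.9% above background on replicate 1 and 17.6% against 15.0% on replicate 2. Of 418 empty spots, 0 were above background in any channel. The 10 member spots lie in 9 of the 48 print blocks, with Sgs3 and Sgs5bis in the same block.

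**Figure D1:**
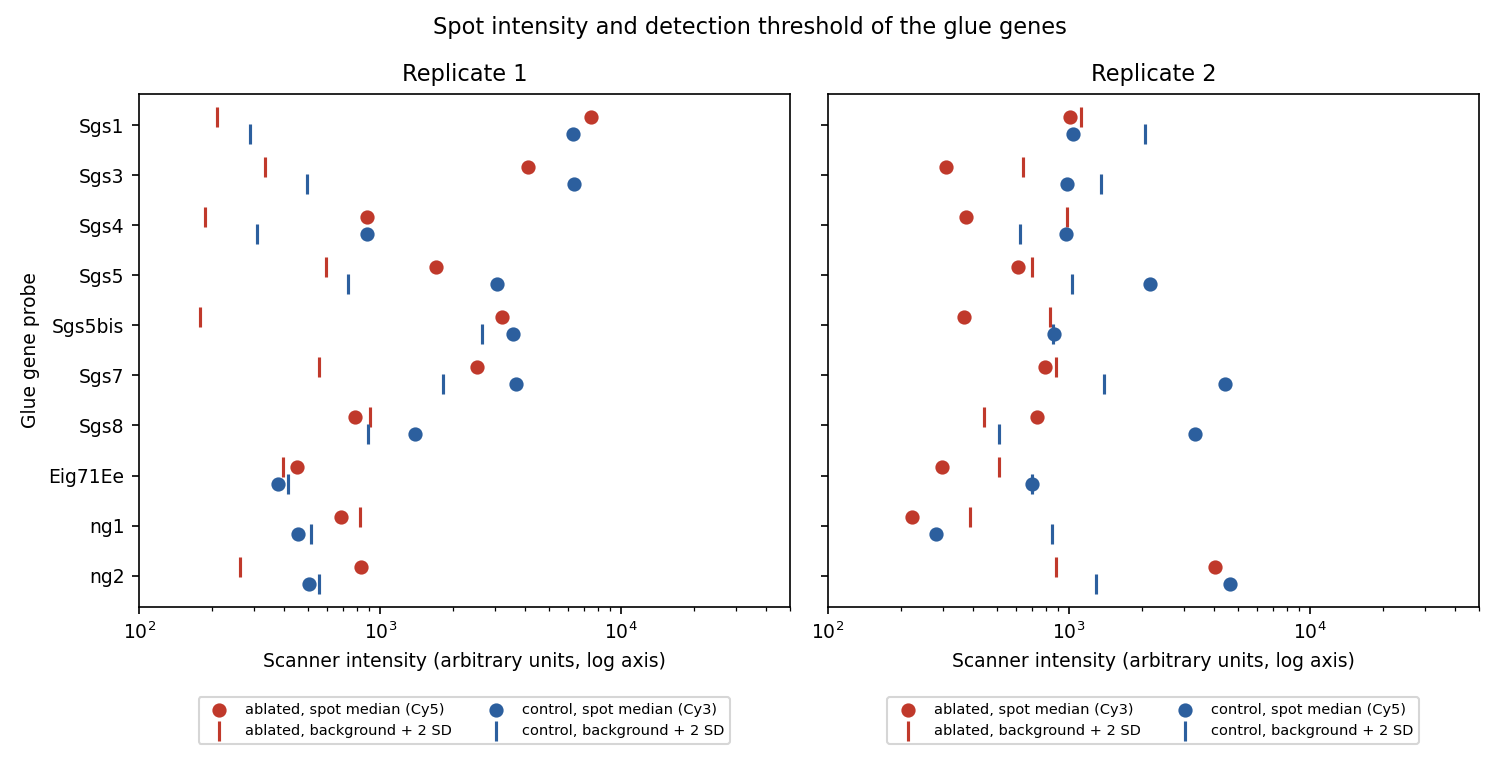
Spot median intensity (circles) and the detection threshold, local background plus 2 SD (ticks), for each glue gene in ablated (red) and control (blue) larvae on each array, on a log axis of scanner units. On replicate 2 only Sgs8 and ng2 have an ablated circle to the right of its tick, while 7 members have a control circle to the right of its tick.

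The 4 small cysteine-rich proteins were all lower on both arrays as labelled, with a median log2 ratio of -1.34 on replicate 1 and -2.13 on replicate 2. With the sign of replicate 2 turned, the median of their means was 0.49. For Sgs5, which lies beside Sgs5bis at 90B on chromosome arm 3R, the signal was 1371 in ablated and 2803 in control larvae on replicate 1. On replicate 2 it was 332 and 1753, and there the ablated channel was not above background. Its control signal was thus the higher on both arrays. After normalization the log2 ratio was -1.57 on replicate 1 and -1.98 on replicate 2, a mean of -1.78 ± 0.29 (SD, n = 2; limma adjusted p = 0.996). On replicate 1, where both channels were above background, this was 2.98-fold lower in ablated larvae.

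Sgs5bis gave 3113 in ablated and 3429 in control larvae on replicate 1. On replicate 2 the ablated spot lay under its background, with a signal of -52. The control signal there was 453, from a spot median of 870 against a threshold of 857. The groups were therefore close on replicate 1 before normalization and far apart on replicate 2. The log2 ratios were -0.80 and -2.09, with a mean of -1.44 ± 0.91 (SD, n = 2).

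Sgs7 and Sgs8 are neighbours at 68C on chromosome arm 3L, together with Sgs3. For Sgs7 the signal was 2293 in ablated and 3401 in control larvae on replicate 1, and 404 and 3838 on replicate 2, where the ablated channel was not above background. The log2 ratios were -1.19 and -2.86, the lowest mean among the members at -2.03 ± 1.18 (SD, n = 2). The arrays lay 1.67 log2 units apart, and on replicate 1, where both channels were above background, Sgs7 was 2.28-fold lower in ablated larvae.

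Sgs8 had a signal of 467 in ablated and 1114 in control larvae on replicate 1, where only the control channel was above background. On replicate 2 it had 597 and 3136, both above background. It was the single member with a lower ratio on both arrays whose ablated channel was detected on replicate 2. Its log2 ratios were -1.50 and -2.18, with a mean of -1.84 ± 0.49 (SD, n = 2), and on replicate 2 it was 4.54-fold lower in ablated larvae.

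Among the large mucins, Sgs3 followed the small proteins while Sgs1 did not differ in a steady direction. The Sgs3 signal was 3992 in ablated and 6197 in control larvae on replicate 1. On replicate 2 it was 1 in ablated and 490 in control larvae, and neither channel was above background, so the second ratio rests on an undetected spot. The log2 ratios were -1.28 and -1.84, with a mean of -1.56 ± 0.39 (SD, n = 2), and on replicate 1 it was 2.43-fold lower in ablated larvae. With plain background subtraction the mean was -5.46, since the ablated signal of 1 on replicate 2 then enters the ratio directly.

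Sgs4, the mucin of the 3C region on the X chromosome, had nearly equal signals on replicate 1, 780 in ablated and 772 in control larvae, and 166 and 690 on replicate 2, where only the control was above background. Its log2 ratios were -0.52 and -1.38, with a mean of -0.95 ± 0.60 (SD, n = 2). On replicate 1 the lower ratio thus appeared only after normalization. In the authors' deposited table, without centring, Sgs4 stands at 0.014 on replicate 1, under the median of 0.611 of the genes tested.

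Sgs1, at 25B on chromosome arm 2L, gave 7376 in ablated and 6150 in control larvae on replicate 1 and 673 and 605 on replicate 2, where neither channel was above background. The raw signal was higher in ablated larvae on both arrays. After normalization its log2 ratios were -0.42 and 0.0212, with a mean of -0.20 ± 0.31 (SD, n = 2), less than the spread between arrays.

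Eig71Ee, at 71E on chromosome arm 3L, was near its threshold throughout. It gave 233 in ablated and 192 in control larvae on replicate 1 and 50 and 337 on replicate 2, and in each case only the Cy5 channel was above background. The log2 ratios were -0.0758 and -1.18, with a mean of -0.63 ± 0.78 (SD, n = 2), so the value rests on replicate 2. With the mean of spot pixels in place of the median it was -1.97. Of the other late puff genes at 71E among its neighbours, 7 were tested. Of these, 2 read lower on both arrays and 0 higher, against 22.4% and 24.5% of all genes tested. The larger of those 2 was Eig71Ef, with -0.87 on replicate 1 and -0.88 on replicate 2.

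Of the 2 new glue genes only ng2 could be tested, and it did not share the pattern of the small proteins. For ng2 the signal was 702 in ablated and 395 in control larvae on replicate 1 and 3593 and 4036 on replicate 2. It was thus the brightest member in ablated larvae on replicate 2. On replicate 1 its control channel was not above background, with a spot median of 508 against a threshold of 555. Its log2 ratios were 0.14 and -0.30, with a mean of -0.0763 ± 0.31 (SD, n = 2), and the sign differed between arrays. The probe of ng1 was not above background in any channel, with signals of 416 and 248 on replicate 1 and 55 and -24 on replicate 2 for ablated and control larvae. No difference is given for it. These are duplicated genes, and since no probe sequence was used here, cross-hybridization between them could not be examined.

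Before any normalization, the background-subtracted signal was lower in ablated larvae on both arrays for 5 of the 9 tested members, Sgs3, Sgs5, Sgs5bis, Sgs7 and Sgs8. The same held for 6.92% of all genes tested. In the authors' deposited table, which holds log2 ratios of ablated to control that were not centred, both arrays have a value for 7 tested members. Sgs5 stands there at -1.03 and -2.40, Sgs7 at -0.57 and -3.25 and Sgs8 at -1.26 and -2.39 in the authors' deposited table. These were the 3 members below 0 on both arrays in the authors' deposited table, against 8.11% of its genes tested. Set against the median of each array (0.611 and 0.052 over the tested genes), 5 of the 7 lay lower on both arrays in the authors' deposited table, against 22.8% of its genes tested.

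By position, every member at 68C and 90B was lower on both arrays as labelled. The median log2 ratio was -1.28 and -2.18 on replicates 1 and 2 for the 3 genes at 68C and -1.19 and -2.04 for the 2 genes at 90B. The 2 tested genes at 3C, Sgs4 and ng2, had medians of -0.19 and -0.84 and differed in sign on replicate 1. With replicate 2 turned, the medians of the means were 0.34 at 68C, 0.42 at 90B and 0.32 at 3C. Genes beside the members were then read in the same way. Among the 5 protein-coding genes on each side of the 5 loci, and those between members, 54 in all by their order in the RefSeq annotation, 22 were tested. Of these 3 were lower on both arrays, 6 were higher on both and 0 were at least 2-fold lower on both. The shares over all genes tested were 22.4%, 24.5% and 0.385%. With so small a last share, a count of 0 among 22 genes says little. At 68C the tested neighbours were CG7512, at 0.45 and 0.45, and Mob2, at -0.26 and 0.28. The gene dnc, whose introns hold the 3C genes, read -0.0848 and 0.38, and ng3, ng4 and Pig1, further gland genes there, were not above background in any channel.

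Across genes the arrays opposed each other, while the small glue proteins read lower on both. Over the 5971 genes tested, Pearson's r between the log2 ratios of replicates 1 and 2 was -0.527 and Spearman's rho was -0.23, a correlation across genes, which are not independent replicates. With the arrays opposed in this way, no direction of a gene is taken as settled here. The dyes named in the labels were followed. The authors' deposited table has the same orientation, which is no independent check if it was made from the same dye labels. If the labelled dyes of replicate 2 were exchanged, its ratios would change sign for every gene, and limma would call 515 genes, none of them a member. At least 2-fold and opposite on the arrays were 346 genes, against 23 lower on both and 1 higher on both. On each array alone no member held the lowest rank. Sgs3, Sgs5, Sgs7 and Sgs8 lay below the 5th percentile of all genes tested, -1.09 on replicate 1 and -1.08 on replicate 2. Counting from the lowest of 5971, Sgs5 held rank 160, Sgs8 rank 169, Sgs3 rank 224 and Sgs7 rank 259 on replicate 1. On replicate 2 the ranks were 34 for Sgs7, 81 for Sgs8, 89 for Sgs5bis, 98 for Sgs5 and 120 for Sgs3. Of these 5, only Sgs8 had an ablated channel above background there, so the other ranks rest on undetected readings. By the mean of both arrays Sgs7 was rank 2, Sgs8 rank 6, Sgs5 rank 8, Sgs3 rank 14 and Sgs5bis rank 19. With the sign of replicate 2 turned these became ranks 5659, 5033, 4460, 4787 and 5540, all in the upper part. In that reading no member was at least 2-fold lower on both arrays, 1 of 9 was lower on both against 26.1% of all genes, and the member median was 0.34.

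**Figure D2:**
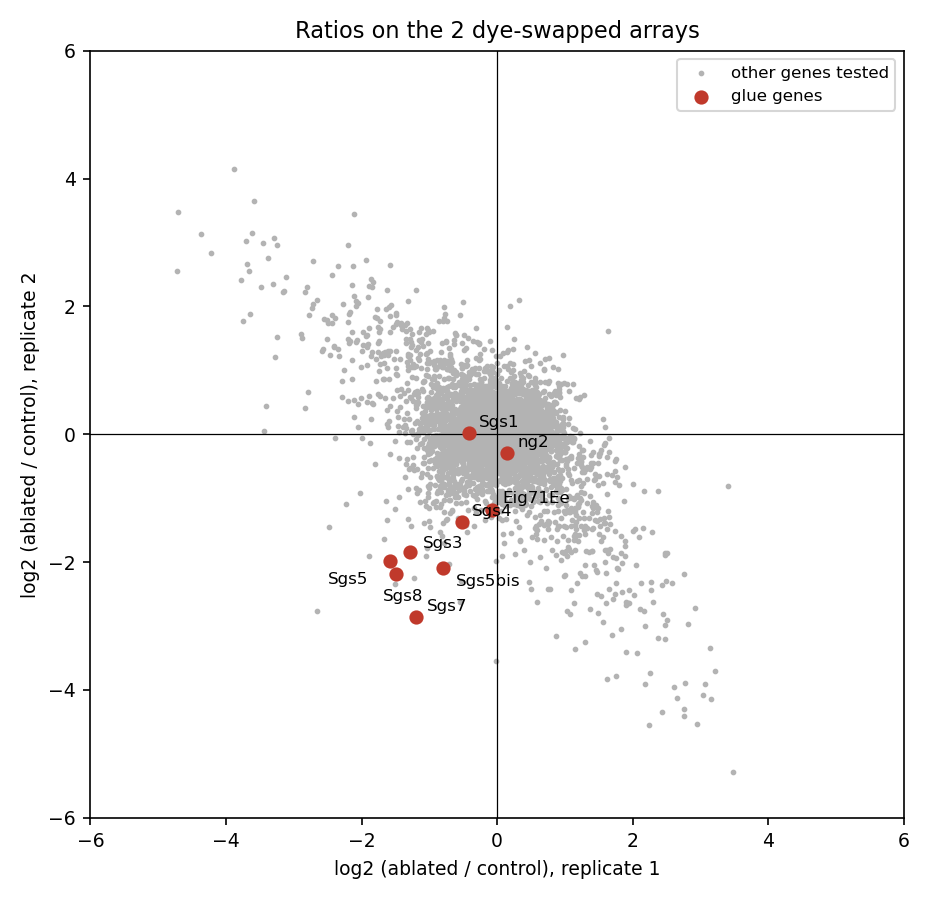
Log2 ratio of ablated to control larvae on replicate 1 (horizontal) and replicate 2 (vertical) for each of the 5971 genes tested, with the 9 tested glue genes in red. Most genes with large ratios lie along the falling diagonal, while Sgs3, Sgs5, Sgs5bis, Sgs7 and Sgs8 lie in the lower left, at or below -0.80 on both arrays.

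Processing changed the size of the glue ratios more than their direction. With the labelled dyes, Sgs3, Sgs4, Sgs5, Sgs5bis, Sgs7, Sgs8 and Eig71Ee had a negative mean under every background, normalization and probe setting that gave them a value. The mean ran from -2.15 to -1.57 for Sgs5, from -2.24 to -1.65 for Sgs8 and from -2.34 to -1.81 for Sgs7. It ran from -5.46 to -1.38 for Sgs3 and from -1.58 to -0.95 for Sgs5bis, whose ablated spot under background on replicate 2 has no ratio after plain subtraction. For the 12 probes printed 17 times on an array, copies of a probe differed by a median SD of 0.178 log2 units on replicate 1 and 0.193 on replicate 2. The SD between arrays, lowest for Sgs5 at 0.29, exceeded both for all 9 tested members. Copies on an array share its dye labelling, so their SD leaves out the dye exchange between arrays.

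**Figure D3:**
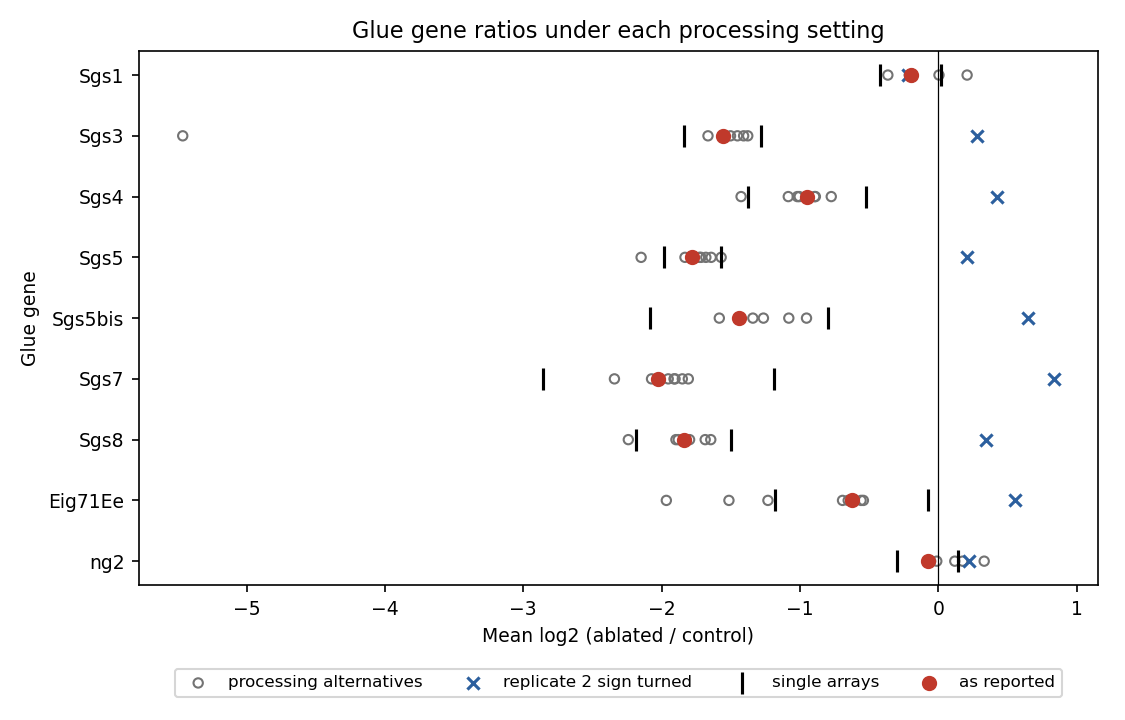
Mean log2 ratio of ablated to control larvae for each tested glue gene as reported (red), under each processing alternative (open circles), on each array alone (black ticks) and with the sign of replicate 2 turned (blue crosses). Apart from the crosses, every mark of Sgs3, Sgs4, Sgs5, Sgs5bis, Sgs7, Sgs8 and Eig71Ee lies below 0.

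Gland transcription factors, ecdysone receptor and early response genes, and genes that make and release glue read both lower and higher. They were listed by role, and ng3, ng4, Pig1 and dnc were added by position. Of these 43 genes, 42 had a probe, 20 were tested and 0 passed the test (limma adjusted p = 0.996 for each). On both arrays 7 were lower and 3 higher, and 10 were mixed, with a median log2 ratio of -0.12. Over all genes tested, 22.4% were lower and 24.5% higher on both arrays and the rest were mixed, so a mixed reading is no trait of these lists. Most of the secretory machinery could not be read, since 12 of the 20 genes with a probe in that list were not above background in any channel.

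Of the gland transcription factors, fkh, the forkhead factor that keeps salivary gland identity, read -0.42 on replicate 1 and 0.87 on replicate 2, with all channels above background. CrebA, which drives secretory pathway genes, read -0.57 and 0.62. The zinc finger factor sens read 0.67 and 0.0591, and sage, the gland's helix-loop-helix factor, -0.0751 and -0.33 with the control channel not well above background on either array. Only sens was higher and only sage lower on both arrays among these 4, and Xbp1 was not above background.

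Of the ecdysone receptor and early response genes, 6 of 8 were tested, 3 lower on both arrays and 0 higher. The shares over all genes tested were 22.4% and 24.5%. Eip74EF, an ETS factor that answers the hormone directly, read -0.75 and -0.52 with all channels above background. Hr3, a nuclear receptor of the prepupal response, read -0.87 and -0.68. EcR, the receptor itself, read -0.11 and -0.27, with the control channel not well above background on either array, and its mean was positive under at least 1 alternative. The remaining 3 were mixed. The broad gene br, which the glue genes need, read 0.60 and -1.05, Eip75B 0.86 and -0.68, and Eip93F -0.20 and 0.25. Of the other br probes, 4 were above background and 3 of these had a negative mean. Neither usp nor ftz-f1 was above background. Of the gland enzymes, pip, a sulfotransferase, read -0.75 and -0.14 by 1 of its 10 probes. Among its other probes, 3 were above background and 2 of these had a negative mean. PH4alphaSG1, PH4alphaSG2, Pgant9 and Papss were not above background.

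Among granule formation and release genes, the 4 with the largest means in the same direction on both arrays were Sar1, Rop, Manf and Syx13. Sar1, the GTPase that forms transport vesicles at the endoplasmic reticulum, read -0.80 and -0.29. Rop, which assists membrane fusion, read 0.13 and 0.47, Manf, a factor secreted through the endoplasmic reticulum, 0.0488 and 0.16, and Syx13, a syntaxin, -0.00161 and -0.20, with a positive mean under at least 1 alternative. The ablated channel of Hr3 and Sar1 and the control channel of Rop and Manf were not well above background on any array, and no fold is given for them.

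**Figure D4:**
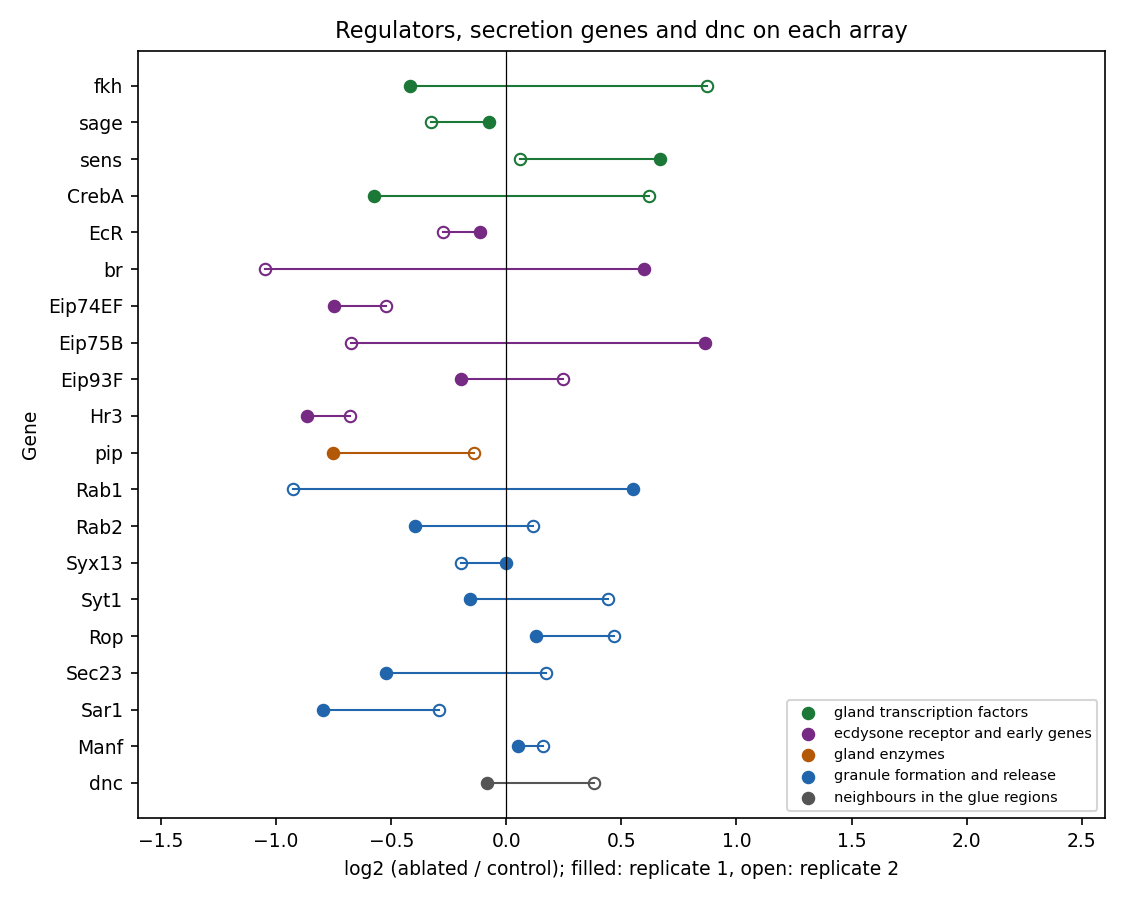
Log2 ratio of ablated to control larvae on replicate 1 (filled) and replicate 2 (open) for the 20 tested genes of the regulator, secretion and position lists, coloured by list; dnc was listed by position. For 10 of the 20 the line joining both arrays crosses 0, among them fkh, CrebA, br and dnc. Over all genes tested, 22.4% were lower and 24.5% higher on both arrays.

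Markers of other larval tissues were read beside the glue genes, and their part in the glue ratios was not tested. For the counts below, 22.4% of all genes tested were lower on both arrays and 24.5% higher on both. Larval cuticle genes, the list nearest to the glue genes in direction, had 2 of 4 tested members lower on both arrays and a median log2 ratio of -0.74. They were Lcp1, at -0.78 and -1.22, and Ccp84Aa, at -0.69 and -0.81. The other 2 were mixed, with Lcp2 at 0.0912 and -1.56 and Lcp3 at -1.74 and 1.45. The summed signal of the 4 tested cuticle genes before normalization was 60854 in ablated and 70606 in control larvae on replicate 1. On replicate 2 it was 15355 and 27603. Fat body genes, which are also under ecdysone control, had 3 of 6 lower and 1 higher on both arrays and a median of 0.0526, with Fbp1 at -0.69 and -0.72 and Lsp1alpha at -0.67 and -0.29. The other fat body genes had means of 0.36 (Lsp2), 0.20 (Fbp2), 0.11 (Lsp1beta) and -0.00662 (Lsp1gamma). The summed fat body signal, before normalization, was 26140 in ablated and 22807 in control larvae on replicate 1 and 12810 and 8516 on replicate 2. After normalization the fat body median was -0.21 on replicate 1 and 0.14 on replicate 2. The other salivary gland markers, sage, fkh and CrebA, had a median of 0.0244, with -0.42 on replicate 1 and 0.62 on replicate 2. Their summed signal before normalization was 5346 in ablated and 4562 in control larvae on replicate 1 and 4008 and 2034 on replicate 2. Such sums include the shift of a whole array, which on replicate 1 stands at a median of 0.611 in the authors' deposited table. Midgut, muscle, hemocyte and wing disc lists had medians of 0.000121, -0.0448, -0.15 and 0.12 over 4, 5, 2 and 3 tested genes.

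Nearest to the member medians on both arrays, by Euclidean distance over the 2 log2 ratios, were 5 genes outside the glue list. They were sick at a distance of 0.141 (-0.79 and -1.70), CG43795 at 0.217, polybromo at 0.249, Wdr33 at 0.252 and CG7974 at 0.256. For CG43795 the control channel was above background on 0 arrays and the ablated channel on 1, so its ratios rest on undetected readings. Of the 6 probes of sick and the 5 of CG43795, only the brightest was read. Likeness over 2 arrays describes these arrays only.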

How the data were processed

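Per the file headers, GenePix Pro 7.1.25 quantified the spots, giving the deposited intensity of spot and local background at 635 nm (Cy5) and 532 nm (Cy3). The deposited percent of saturated pixels per spot and the fraction of variance shared by the pixels of both channels (0.409 to 0.981 for members on replicate 1, 0.093 to 0.931 on replicate 2) were read as checks. The log2 ratios the authors deposited differ from log2 ratios of the background-subtracted scanner medians by a median of 0.003 (replicate 1) and 0.0058 (replicate 2), both turned to ablated over control. Their column medians, 0.487 and -0.115, show no centring; which further steps made them was not stated in the sources used.

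Of 14593 probes, 12688 were named by locus tag and 1218 by synonym in RefSeq's Release 6 gene table, and 687 kept the file's name. No coordinates are given, since the files name no genome build. In limma 3.58.1 (R 4.3.3) normexp with an offset of 50 corrected the background and loess normalized each array, with control spots weighted 0. Repeated spots were averaged per probe, the brightest probe stood for a gene, and replicate 2 was turned. Probes above background in no channel were left out. The 2 ratios were tested against 0 with lmFit and eBayes, two-sided, with Benjamini-Hochberg adjustment. The test was also run on simulated data with independent noise on each array. The real arrays opposed each other across genes, so that run does not show how the test behaves here. The number of arrays limits the precision. Members, lists and tests were chosen with earlier results of these data known. Named are all members and all tested genes of lists of 8 or fewer. In longer lists the 4 largest means of the same sign on both arrays are named. Also named are the 5 nearest genes and up to 2 tissue markers a list with the smallest p. For fat body and larval cuticle the other tested genes are given beside them. Neighbours of a locus were added as counts. Alternatives are given in the closing section.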

Additional observations from a re-analysis of the deposited data

How the results depend on the processing

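With replicate 2 turned against its labelled dyes, the glue list median was 0.34, 1 member was lower on both arrays and limma called 515 genes, 261 higher and 254 lower; under every other setting 0 genes were called, also at an adjusted p of 0.1 and with a trend in eBayes. In that reading the means were 0.28 for Sgs3, 0.43 for Sgs4, 0.21 for Sgs5, 0.64 for Sgs5bis, 0.84 for Sgs7, 0.34 for Sgs8, 0.55 for Eig71Ee and 0.22 for ng2. In the authors' values 3 members were lower on both arrays, Sgs1 averaged 0.21 and ng2 0.33. Median centring gave Sgs1 0.00422 and ng2 0.12, and print-tip loess gave ng2 0.18. Median centring and the authors' values moved the median of all genes to 0.14 and 0.31; the authors' values lack Sgs3, Sgs5bis and ng1 on replicate 2. Single arrays gave Sgs1 -0.42 to 0.0212 and ng2 -0.30 to 0.14. The median of the regulator and secretion genes with dnc (-0.12 as reported) was 0.0456 with median centring, -0.0411 without a filter, 0.0929 with the stricter filter, 0.31 in the authors' values and -0.14 to -0.0412 on single arrays; 11 of these 20 genes changed the sign of their mean under some alternative. The cause was not tested for any of these. The list median kept its sign under all other alternatives, and on single arrays it was -0.80 and -1.84, with 8 of 9 members lower on each. The stricter filter, above background in all 4 channels, left 0 members. Member readings above background numbered 33 at 1 SD and 20 at 3 SD. Each ratio pairs both RNAs of an array, so the test of the 2 ratios against 0 was already a paired analysis.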
